A study of Mus musculus with 4 samples.

Results

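Intensities of 7 genes of the intestinal brush border and its surroundings were examined in crypt epithelium of the mouse jejunum in mice without YY1, a transcription factor with zinc fingers. The genes were Plb1, Alpi, Tmigd1, Dnase1, Npl, Enpp3 and Asah2, and an 8th gene, Enpp7, was listed with them but was matched to no probe set in the annotation used here, so it has no value. Every probe set that the platform annotation assigns to 1 of these genes and to no other gene was taken, which gave 16 of the 45101 probe sets on the array, or 7 of 18193 genes. The genes were grouped by what their products do, and in part because Plb1, Tmigd1 and Dnase1 stood among the largest decreases of these same arrays. The differences between knockout and control arrays are therefore given for these genes as a description, without a test.

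The knockout group comprised 2 arrays of mice labelled YY1f/f; Vil-Cre-ERT2, which carry floxed Yy1 alleles and a Cre recombinase that tamoxifen activates and that the Villin promoter confines to intestinal epithelium. The reference was 2 arrays of mice labelled only as control, and their genotype is not known here. All 4 samples carry the strain label C57BL/6J enriched and a treatment text that names tamoxifen for 4 days, and its wording leaves unclear whether the control mice received it. Loss of Yy1 and effects of tamoxifen or Cre cannot be told apart. Nothing in the labels gives the age or sex of the mice, or whether animals were pooled for an array, though the titles call the replicates biological.

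The brush border is the carpet of microvilli on the absorptive enterocyte. Enzymes anchored in its membrane finish the digestion of nutrients at the cell surface, and as cells leave the crypt and mature on the villus they come to make these enzymes in large amounts. Plb1 is a membrane-bound phospholipase B that removes fatty acids from phospholipids and lysophospholipids. Alkaline sphingomyelinase, the product of Enpp7, and neutral ceramidase, the product of Asah2, degrade dietary sphingomyelin in steps to ceramide and then to sphingosine. Alpi is the intestinal alkaline phosphatase, a protein with a glycolipid anchor that also removes phosphate from bacterial lipopolysaccharide, and Enpp3 cleaves extracellular nucleotides. Tmigd1 is an adhesion protein with immunoglobulin domains that binds the microvillus scaffold. The other two are not membrane enzymes of the brush border: Dnase1 is a secreted nuclease, and Npl is a cytosolic lyase that splits the sialic acid N-acetylneuraminate.

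The deposited values are linear intensities. Log2 differences are knockout minus control on log2(intensity + 16), given ± SE from a limma fit over all probe sets, and means are given ± SD, with n = 2 arrays per group throughout. On this scale the difference of a dim probe set is understated. The median of 27 control probe sets for Bacillus genes lay at 31.9 and 32.7 in the knockout arrays, against 35.6 and 33.1 in the control arrays, and served as a mark of background. The highest of these control probe sets gave between 125 and 129.

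All 4 probe sets for Yy1 itself were lower in the knockout arrays. The set with the brightest control signal read 69.4 and 68.1 in knockout replicates 1 and 2, against 1648 and 1681 in control replicates 1 and 2 (log2 difference -4.31 ± 0.10). The knockout readings lay under the highest Bacillus probe set, so the size of this difference is not exact and the readings do not show whether the 2 knockout arrays lost Yy1 to the same degree. Across genes the knockout arrays gave a lower intensity in replicate 1 than in replicate 2 for 53.9% of all genes, and for 1481 of the 1994 genes called lower. The mean log2 difference of enterocyte markers from the control mean was -1.32 for knockout replicate 1, and -0.66 for replicate 2. Among 20 of these markers 14 fell and 0 rose by limma at an adjusted p under 0.05 (19 and 0 at an unadjusted p under 0.05), and their summed intensity was 66407 and 95832 in the knockout arrays, against 129102 and 128272 in the control arrays. Over all 18193 genes 11.0% fell and 13.4% rose by the same test, or 24.4% in all, and 16.3% and 19.2% at an unadjusted p under 0.05. Of 9 proliferation markers 7 rose, and of 9 villus tip markers 4 fell. Of the other lists, 1 of 10 stem cell, 2 of 8 goblet, 2 of 6 tuft, 2 of 9 immune, and 2 of 9 mesenchyme and endothelium markers fell. Of 5 Paneth cell markers 1 rose, and of 7 enteroendocrine markers 1 rose and 1 fell. The stem cell marker that fell was Olfm4, at 3662 and 3332 in the knockout arrays, against 5463 and 5279 in the control arrays (-0.62 ± 0.10, limma adjusted p = 0.00574). Lgr5, which defines crypt stem cells, was dim at 63.2 and 59.5 in the knockout arrays, against 69.2 and 66.3 in the control arrays. These Lgr5 readings lay under the highest Bacillus probe set in both groups. The summed markers of mesenchyme and endothelium lay at 1267 and 1076 in the knockout arrays, against 1351 and 1436 in the control arrays, and those of immune cells at 10483 and 11451, against 11132 and 11474. Most of the immune sum was Lyz2, at 7285 and 7977 in the knockout arrays, against 7550 and 7845 in the control arrays. The mean log2 difference of the immune markers from the control mean was -0.20 for knockout replicate 1 and -0.07 for replicate 2. As a sign of RNA quality, the 3' control probe set for Gapdh exceeded the 5' set on the log2 scale by 1.71 and 1.65 in the knockout arrays, against 1.44 and 1.40 in the control arrays. The part of RNA quality and of the enterocyte markers' shift in the results that follow was not tested, and in these bulk samples fewer enterocytes cannot be told apart from less transcript per enterocyte.

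All 7 genes with a probe set were lower in both knockout arrays than in both control arrays with the probe set that represented the gene, which was the brightest on the log2 scale. The same held for 15 of the 16 probe sets, where 28.4% of all probe sets and 29.3% of all genes had both knockout arrays below both control arrays. These shares are a background only, since the genes were chosen in part from this contrast, in which 24.4% of all genes passed the test by limma. In 8 of the 16 probe sets both knockout values lay under the highest Bacillus probe set. The median log2 difference of the 7 genes was -3.45, beside 0.01 over all genes, and it ranged from -4.03 for Plb1 to -1.65 for Enpp3.

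**Figure D1:**
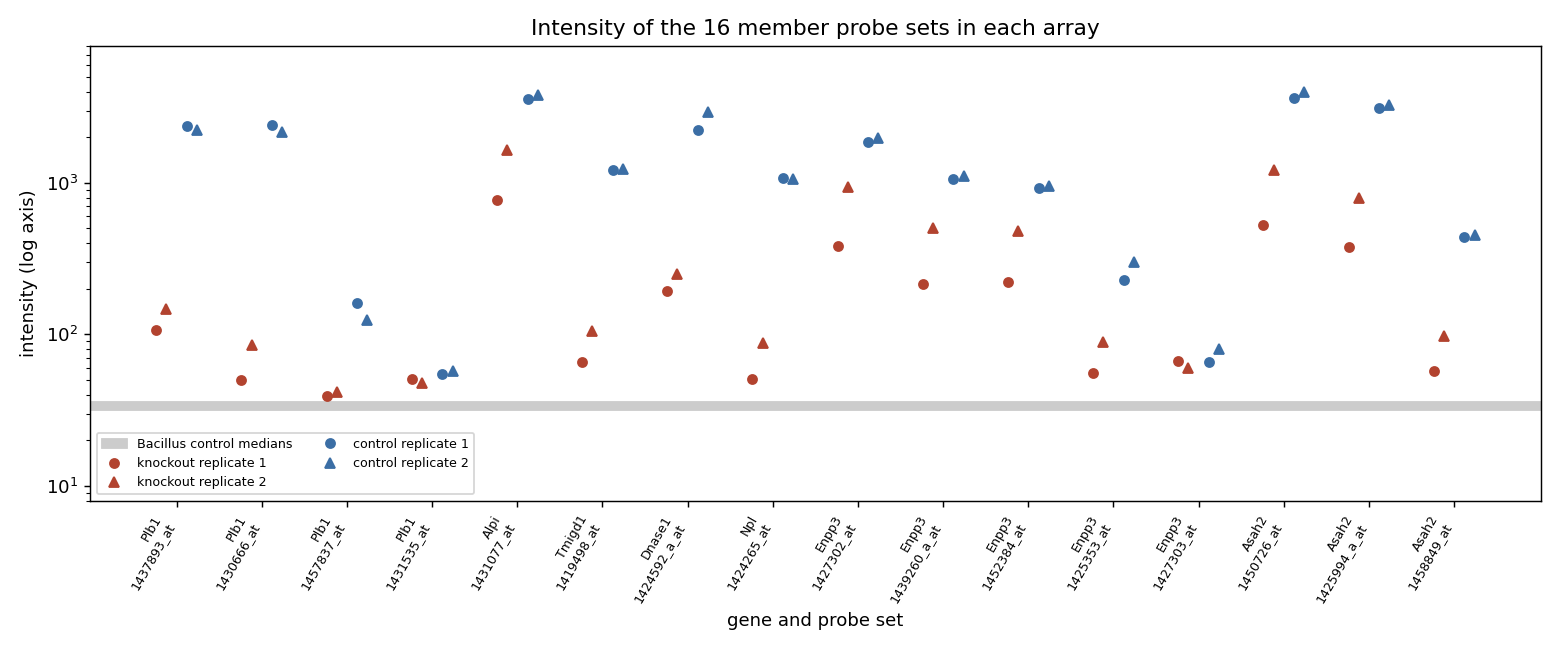
Intensity of the 16 probe sets (log axis) in each of the 4 arrays, with knockout arrays in red left of control arrays in blue, circles for replicate 1 and triangles for replicate 2. The grey band marks the Bacillus control medians, 31.9 to 35.6, and in all probe sets except 1427303_at of Enpp3 both red points lie below both blue points.

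Plb1 had the largest fitted difference of the 7 genes. Its representative probe set, 1437893_at, read 108 and 146 in knockout replicates 1 and 2, against 2366 and 2219.7 in control replicates 1 and 2. The knockout arrays thus held 4.70% and 6.37% of the control mean (log2 difference -4.03 ± 0.14). Knockout replicate 1 lay under the highest Bacillus probe set, so these sizes, and the place of Plb1 ahead of Npl and Tmigd1, are not exact. A second bright probe set, 1430666_at, read 50.4 and 85.2 in the knockout arrays, against 2412 and 2173 in the control arrays (-4.81 ± 0.19). Both of its knockout values lay under the highest Bacillus probe set. With 1457837_at the gene read 39.4 and 41.9 in the knockout arrays, against 161 and 125 in the control arrays (-1.48 ± 0.13). The knockout values of 1457837_at also lay under the highest Bacillus probe set. The remaining probe set, 1431535_at, gave 50.9 and 48.1 in the knockout arrays, against 54.6 and 57.8 in the control arrays (-0.14 ± 0.10). In that probe set the control mean was 1.64 times the Bacillus median, so it held little signal in either group. The 4 probe sets thus agreed in direction, and the 2 with bright control signal gave the large differences.

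Among 33 other measured phospholipases and lysophospholipases 7 fell and 1 rose, or 21.2% and 3.03%, beside 11.0% and 13.4% of all genes (limma, adjusted p under 0.05). The median of the list was -0.02, beside 0.01 over all genes. Plbd1, a lysosomal protein related to phospholipase B, fell to 255 ± 12.2 in knockout arrays, against 1286 ± 138 in control arrays (-2.26 ± 0.11, limma adjusted p = 0.000164). Plaat3, a phospholipase of adipose and other tissues, fell to 848 ± 73.6 in knockout arrays, against 2978 ± 253 in control arrays (-1.79 ± 0.11). Lyplal1, a lysophospholipase-like protein, differed by -0.78 ± 0.13, and Pla2g12b, a secreted phospholipase-like protein without catalytic activity, by -0.62 ± 0.15. The call of Pla2g12b was lost without knockout replicate 1 or without either control array (limma adjusted p between 0.0641 and 0.104). The gene that rose was Pnpla7, a lysophospholipase, by 0.46 ± 0.13, a call lost without knockout replicate 2 or either control array (adjusted p between 0.135 and 0.177).

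Asah2, the neutral ceramidase, was lower with all 3 of its probe sets. The brightest, 1450726_at, read 531 and 1215 in knockout replicates 1 and 2, against 3647 and 3972 in the control arrays (-2.22 ± 0.32). With 1425994_a_at it read 375 and 795 in the knockout arrays, against 3124 and 3251 in the control arrays (-2.51 ± 0.29). The dimmest, 1458849_at, read 57.3 and 97.5 in the knockout arrays, against 441 and 456 in the control arrays (-2.35 ± 0.19). Both knockout values of 1458849_at lay under the highest Bacillus probe set, so the size of its difference is not exact. In each of the 3 probe sets knockout replicate 1 was the lower of the knockout arrays, and the groups did not overlap. By the representative probe set the knockout arrays held 13.9% and 31.9% of the control mean.

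Of 31 other measured genes of sphingomyelin and ceramide metabolism 5 fell and 0 rose by limma, where 16.1% stands beside the 11.0% of all genes called lower. At an unadjusted p under 0.05, 9 were lower and 3 higher, beside 16.3% and 19.2% of all genes, and the list median was -0.06. Sgpl1, the lyase that breaks down sphingosine 1-phosphate, fell to 662 ± 201 in knockout arrays, against 1813 ± 107 in control arrays (-1.46 ± 0.19, limma adjusted p = 0.00273). Sphk1, the kinase that makes sphingosine 1-phosphate from sphingosine, fell by 0.79 ± 0.11. Both enzymes act on the path that follows ceramidase. Smpdl3a, a phosphodiesterase related to acid sphingomyelinase, fell to 472 ± 18.7 in knockout arrays, against 1430 ± 84.5 in control arrays (-1.57 ± 0.10). The ceramide synthase Cers2 differed by -0.62 ± 0.10 and the alkaline ceramidase Acer1 by -0.63 ± 0.16. The call of Acer1 was lost without knockout replicate 1 or either control array (limma adjusted p between 0.0868 and 0.138).

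Alpi was represented by 1 probe set, 1431077_at. It read 773 and 1645 in knockout replicates 1 and 2, against 3572 and 3785 in control replicates 1 and 2 (-1.69 ± 0.30). The groups did not overlap, but the 2 knockout arrays stood apart from each other, at 21.0% and 44.7% of the control mean. Akp3, a close relative of Alpi known in mouse for expression in the upper small intestine, read 135 and 132 in the knockout arrays, against 159 in both control arrays (-0.22 ± 0.09, limma adjusted p = 0.136). Akp3 lay just above the highest Bacillus probe set in all 4 arrays, where the Bacillus medians were 31.9 to 35.6. The part of background in its readings was not tested, so its difference is not set against that of Alpi. Whether the Alpi probe set also binds transcripts of Akp3 was not analysed here. The 3 alkaline phosphatases other than Alpi, Akp3, Alpl and Alppl2, had 0 calls by limma, and 1 at an unadjusted p under 0.05 (16.3% of all genes were lower at that threshold).

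The promoters of the genes are shown here because these genes were lower together, and that of Akp3 is added as the relative of Alpi that lies near it on chromosome 1. Windows of 250 bases before to 50 bases after the annotated start were taken from RefSeq on GRCm38.p6, and all 8 listed genes had at least 1, for 11 windows in all. The windows printed are those of Alpi (chr1:87101557-87101856, minus strand), Akp3 (chr1:87124704-87125003, plus strand), the downstream start of Tmigd1 (chr11:76901909-76902208, plus strand) and the upstream start of Plb1 (chr5:32238834-32239133, plus strand). Each is written 5' to 3' along the gene, and capitals mark CAAAGTC or its complement, a core of the site bound by HNF4, a nuclear receptor of enterocytes. The printed windows do not stand for all 11. Those of Npl, Enpp3, Dnase1 and Asah2, the upstream start of Tmigd1 and the downstream start of Plb1 hold no such match and are not printed. The Enpp7 window holds it and is not printed either, and Enpp7 has no intensity here.
Alpi: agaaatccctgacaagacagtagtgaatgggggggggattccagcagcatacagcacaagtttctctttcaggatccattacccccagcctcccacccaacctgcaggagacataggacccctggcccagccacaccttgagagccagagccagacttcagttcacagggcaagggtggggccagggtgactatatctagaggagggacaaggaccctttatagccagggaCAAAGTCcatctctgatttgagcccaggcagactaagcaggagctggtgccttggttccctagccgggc
Akp3: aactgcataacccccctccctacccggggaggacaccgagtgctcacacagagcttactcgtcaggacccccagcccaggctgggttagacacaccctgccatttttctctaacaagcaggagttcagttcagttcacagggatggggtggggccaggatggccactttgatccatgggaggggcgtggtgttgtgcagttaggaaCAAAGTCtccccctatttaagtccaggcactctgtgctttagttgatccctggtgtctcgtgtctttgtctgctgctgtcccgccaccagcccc
Tmigd1: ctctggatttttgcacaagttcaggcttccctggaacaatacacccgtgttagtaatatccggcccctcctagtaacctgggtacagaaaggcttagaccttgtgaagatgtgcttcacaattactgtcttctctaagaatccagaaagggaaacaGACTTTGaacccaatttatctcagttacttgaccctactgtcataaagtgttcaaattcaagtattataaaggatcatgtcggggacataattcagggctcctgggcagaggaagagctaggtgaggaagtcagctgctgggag
Plb1: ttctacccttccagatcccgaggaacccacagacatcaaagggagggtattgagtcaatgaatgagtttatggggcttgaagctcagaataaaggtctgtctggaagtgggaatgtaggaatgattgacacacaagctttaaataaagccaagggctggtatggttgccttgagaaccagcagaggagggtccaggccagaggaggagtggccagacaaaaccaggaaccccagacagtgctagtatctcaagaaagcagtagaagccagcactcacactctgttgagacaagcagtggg
CAAAGTC was found on either strand in 3 of the 11 windows, in Alpi, Enpp7 and 1 of the 2 Tmigd1 windows, and in 4.44% of 32851 windows of all genes. The Akp3 window holds it as well, at 44 bases before the start, and the Alpi window at 19 bases before the start. TTTAT, a core of the CDX2 site, was in 8 of the 11 windows and in 40.0% of all windows. GATAA, bound by GATA factors, was in 4 of the 11 and in 25.4% of all, and in the printed Tmigd1 window a match of it overlaps a CDX2 match. The letters CCATNTT, a core of the YY1 site, were in 0 of the 11 windows and in 16.1% of all, and they are present in the Akp3 window. The Plb1 window printed here holds TTTAT at 3 places and none of the other motifs. The 2 Dnase1 windows overlap and share their matches. These are matches of letters in a short window, and no binding was measured.

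Enpp3, the surface nucleotide pyrophosphatase, had 5 probe sets, of which 3, namely 1427302_at, 1427303_at and 1452384_at, share the same source sequence. The representative probe set, 1427302_at, read 380.3 and 938 in knockout replicates 1 and 2, against 1859.8 and 1962 in the control arrays (-1.65 ± 0.35). Knockout replicate 2 thus stood at 49.1% of the control mean and knockout replicate 1 at 19.9%, the widest gap among the 7 genes. The probe sets 1439260_a_at, 1452384_at and 1425353_at gave -1.67 ± 0.32, -1.47 ± 0.30 and -1.67 ± 0.20. In 1425353_at the knockout arrays read 55.8 and 89.6, under the highest Bacillus probe set, so the size of its difference is not exact. The fifth, 1427303_at, was dim and overlapped between the groups, with 66.5 and 60.1 in the knockout arrays, against 65.9 and 80.2 in the control arrays (-0.16 ± 0.12). Its control mean was 2.13 times the Bacillus median, where that of the representative probe set was 55.7 times it.

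Of 13 other measured genes of the ENPP family and the ectonucleotidases 3 fell and 0 rose by limma, where 23.1% stands beside the 11.0% of all genes called lower. At an unadjusted p under 0.05 the counts were 4 and 0, and the list median was -0.20. Nt5e, the 5'-nucleotidase that turns extracellular AMP into adenosine, fell to 120 ± 57.2 in knockout arrays, against 412 ± 109 in control arrays (-1.70 ± 0.29, limma adjusted p = 0.00664). It was also lower with another of its probe sets, while its dimmest gave 0.034. Entpd8 and Entpd7, nucleoside diphosphohydrolases that act on nucleotides step by step, differed by -0.69 ± 0.13 and -0.57 ± 0.10. Both calls were lost without control replicate 1 (limma adjusted p = 0.0548 for Entpd8 and 0.0560 for Entpd7), and that of Entpd7 stayed without control replicate 2 at 0.0493.

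Tmigd1 had 1 probe set, 1419498_at, which read 66.2 and 105 in knockout replicates 1 and 2, against 1218 and 1242 in the control arrays (-3.64 ± 0.17). The knockout arrays thus held 5.39% and 8.54% of the control mean, at levels under the highest Bacillus probe set, so the size of the difference is not exact. The control arrays differed by a ratio of 1.02. Of 8 measured genes of the scaffold that Tmigd1 is known to bind, ezrin with the NHERF proteins, and of its near partners, 5 fell and 0 rose by limma, where 62.5% stands beside the 11.0% of all genes called lower. The counts were the same at an unadjusted p under 0.05, and the list median was -0.57. Pdzk1, a scaffold of brush border transporters, fell to 422 ± 153 in knockout arrays, against 1777 ± 122 in control arrays (-2.08 ± 0.22, limma adjusted p = 0.00141). Its relative Pdzd3 differed by -1.70 ± 0.23, and Slc9a3, the sodium/hydrogen exchanger that these scaffolds hold, by -1.45 ± 0.10. Slc9a3r1, which encodes NHERF1, differed by -0.74 ± 0.15 and Ezr, the gene of ezrin, by -0.40 ± 0.11. The call of Slc9a3r1 was lost without control replicate 1 or 2 (adjusted p = 0.0637 and 0.0620), and that of Ezr without knockout replicate 1 or either control array (between 0.108 and 0.173).

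Npl had 1 probe set, 1424265_at, which read 50.9 and 87.2 in knockout replicates 1 and 2, against 1074 and 1066 in the control arrays (-3.71 ± 0.19). The control arrays were within a ratio of 0.992 of each other, and the knockout arrays held 4.76% and 8.15% of their mean. Here too the knockout levels lay under the highest Bacillus probe set. Npl opens the breakdown of free sialic acid, whose products pass through N-acetylmannosamine and N-acetylglucosamine to fructose 6-phosphate. Of 20 other measured genes of sialic acid and amino sugar metabolism 6 fell and 0 rose by limma, beside 11.0% and 13.4% of all genes. At an unadjusted p under 0.05, 9 were lower and 3 higher, beside 16.3% and 19.2% of all genes, and the list median was -0.03. Gnpda1, the deaminase at the end of that path, fell to 163 ± 33.4 in knockout arrays, against 555 ± 36.8 in control arrays (-1.69 ± 0.14, limma adjusted p = 0.000801). Nagk, the kinase of N-acetylglucosamine, fell to 441 ± 16.6 in knockout arrays, against 945 ± 58.5 in control arrays (-1.07 ± 0.10). Siae, an esterase that removes acetyl groups from sialic acid, differed by -0.92 ± 0.15, and Amdhd2, the deacetylase of N-acetylglucosamine 6-phosphate, by -0.58 ± 0.11. The call of Amdhd2 was lost without control replicate 1 or 2 (adjusted p = 0.0562 and 0.0606). Genes that make sialic acid were given beside them after their values were seen: the differences were 0.09 ± 0.13 for Gne, -0.06 ± 0.09 for Nans, 0.08 ± 0.10 for Nanp and 0.27 ± 0.10 for Cmas, and none passed the test (limma adjusted p between 0.0875 and 0.699). Not every gene of the breakdown path fell. Renbp and Gnpda2 of that path, also given after their values were seen, overlapped between the groups, at 0.11 ± 0.11 and 0.15 ± 0.12.

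Dnase1 had 1 probe set, 1424592_a_at. It read 192 and 252 in knockout replicates 1 and 2, against 2231 and 2929.7 in the control arrays (-3.45 ± 0.17). By the representative probe sets it was the only gene of the 7 whose control arrays differed by more than a ratio of 1.1, at 1.31. Its knockout arrays differed by the same ratio of 1.31. The knockout values of 7.45% and 9.75% of the control mean lay above the highest Bacillus probe set. Of 13 other measured deoxyribonucleases 2 fell and 3 rose by limma, and these 15.4% and 23.1% stand beside 11.0% and 13.4% of all genes, with a list median of -0.06. Endod1, an endonuclease domain protein, fell to 187 ± 7.72 in knockout arrays, against 476 ± 65.5 in control arrays (-1.27 ± 0.12, limma adjusted p = 0.00103), and Dnase1l1, a relative of Dnase1, differed by -0.54 ± 0.11. Dffb, the nuclease that cuts DNA during apoptosis, rose to 420.3 ± 50.1 in knockout arrays, against 249 ± 7.67 in control arrays (0.72 ± 0.11). Tatdn2 and Tatdn1, putative nucleases, rose by 0.52 ± 0.11 and 0.34 ± 0.10. The call of Dnase1l1 was lost without knockout replicate 1 or control replicate 2 (adjusted p = 0.0621 and 0.0986). The call of Tatdn2 was lost without the same arrays (adjusted p = 0.0513 and 0.102), and that of Tatdn1 without any of the 4 arrays (between 0.0585 and 0.190).

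**Figure D2:**
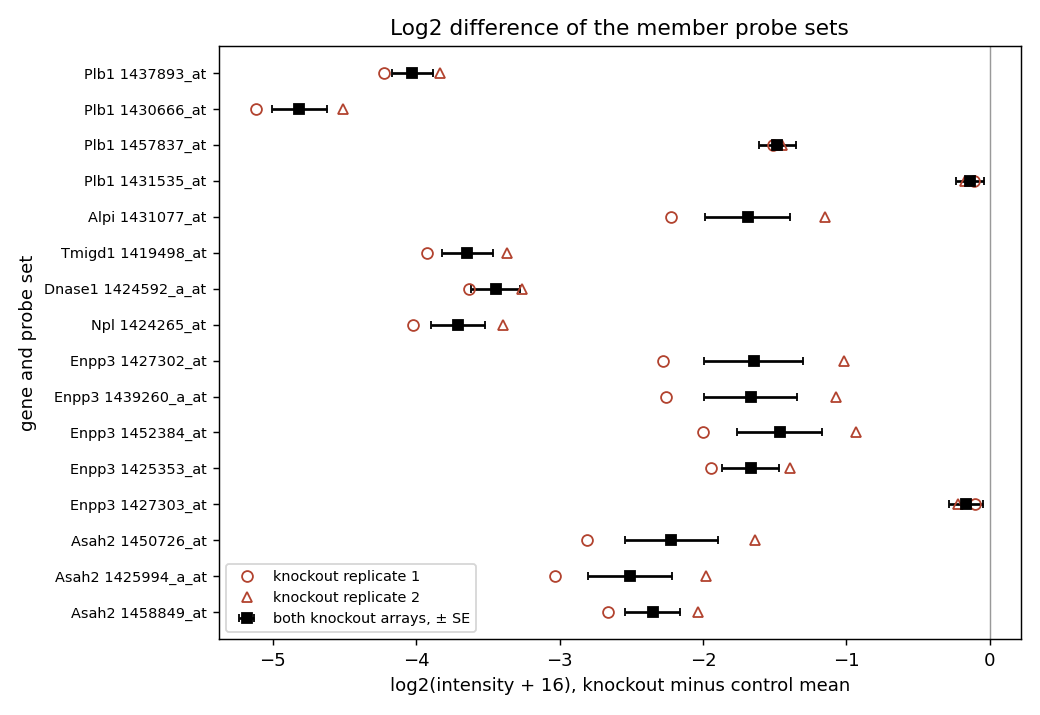
Log2 difference from the control mean for each of the 16 probe sets, with open circles for knockout replicate 1, open triangles for knockout replicate 2 and black squares for both arrays ± SE. The brightest probe sets of Plb1, Tmigd1, Dnase1 and Npl lie between -4.03 and -3.45, and those of Alpi, Enpp3 and Asah2 between -2.22 and -1.65 with the replicates farther apart.

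By their representative probe sets the 7 genes varied in how far the knockout arrays fell short of the control mean. They also varied in how far the 2 knockout arrays stood from each other. Plb1, Tmigd1, Dnase1 and Npl lay between 4.70% and 9.75% of the control mean in the knockout arrays, and replicate 2 exceeded replicate 1 by ratios from 1.31 to 1.71. Alpi, Enpp3 and Asah2 lay between 13.9% and 49.1% of the control mean, with ratios from 2.13 to 2.47. The ratios of control replicate 2 over control replicate 1 lay between 0.938 and 1.31 over all 7 genes. This division was made after the values were seen and was not tested, and the called peptidases and disaccharidases did not all follow it. Nor did all other probe sets of these genes. The probe sets 1458849_at of Asah2 and 1425353_at and 1427303_at of Enpp3 gave ratios of 1.70, 1.61 and 0.904. Both knockout values of each lay under the highest Bacillus probe set. Ratios were 2.12 for 1425994_a_at of Asah2, and 2.36 and 2.17 for 1439260_a_at and 1452384_at of Enpp3. Tmigd1 and Npl in both knockout arrays, and Plb1 in replicate 1, lay under the highest Bacillus probe set, and the part of background in these ratios was not tested. All 7 genes were lower in knockout replicate 1 than in knockout replicate 2, as were 14 of the 16 probe sets. The same held for 53.9% of all genes and for 74.3% of the genes called lower. It also held for the 13 called brush border peptidases and disaccharidases, with ratios from 1.06 to 2.84.

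**Figure D3:**
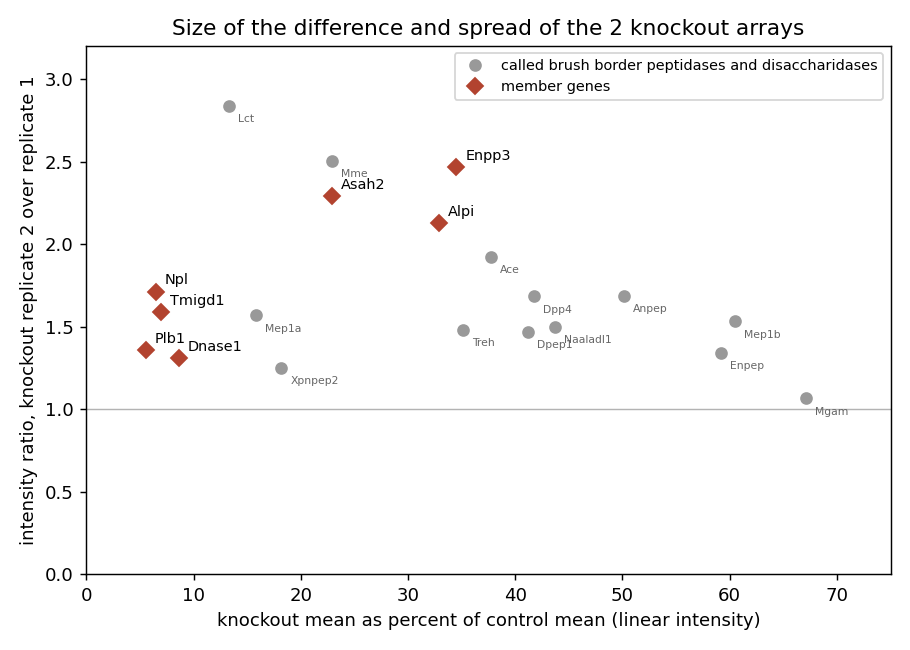
Knockout mean as percent of the control mean (x axis, linear intensity) against the intensity ratio of knockout replicate 2 over replicate 1 (y axis), with red diamonds for the 7 genes and grey circles for the 13 called brush border peptidases and disaccharidases. Plb1, Tmigd1, Dnase1 and Npl sit at 5.53% to 8.60% with ratios up to 1.71, and Alpi, Enpp3 and Asah2 at 22.9% to 34.5% with ratios from 2.13. The grey circles do not all divide this way. Lct sits at 13.3% with a ratio of 2.84 and Treh at 35.1% with 1.48, while Mme, at 22.9% with 2.50, lies near Asah2.

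Brush border peptidases and disaccharidases were set beside the 7 genes, not all of which are brush border hydrolases. Of 13 brush border peptidases 10 fell and 0 rose by limma, or 76.9% and 0%, beside 11.0% and 13.4% of all genes. The counts were the same at an unadjusted p under 0.05, beside 16.3% and 19.2% of all genes. All 3 disaccharidases fell. The medians were -1.21 for the peptidases and -1.51 for the disaccharidases, beside 0.01 over all genes. The median of the 7 genes, -3.45, lay below both, but since they were chosen in part for their differences this comparison was not tested. That median is the value of Dnase1. With Tmigd1 at -3.64 and Npl at -3.71, it is not a membrane enzyme of the brush border. The membrane enzymes Plb1, Asah2, Alpi and Enpp3 lay at -4.03, -2.22, -1.69 and -1.65. Among the peptidases Xpnpep2 differed by -2.38 ± 0.14, Mep1a by -2.62 ± 0.19, Dpep1 by -1.30 ± 0.17 and Naaladl1 by -1.21 ± 0.18. Lct, the lactase, read 303 and 860.2 in the knockout arrays, against 4436 and 4336 in the control arrays (-3.06 ± 0.40), with a ratio of 2.84 between the knockout arrays. Treh, the trehalase, differed by -1.51 ± 0.17 and Mgam, the maltase-glucoamylase, by -0.57 ± 0.10. With a trended and robust prior the call of Lct was lost (limma adjusted p = 0.0665), as were those of 5 of the 10 peptidases. The calls of the peptidases Anpep and Mep1b were lost without either control array, and that of Enpep without control replicate 1.

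**Figure D4:**
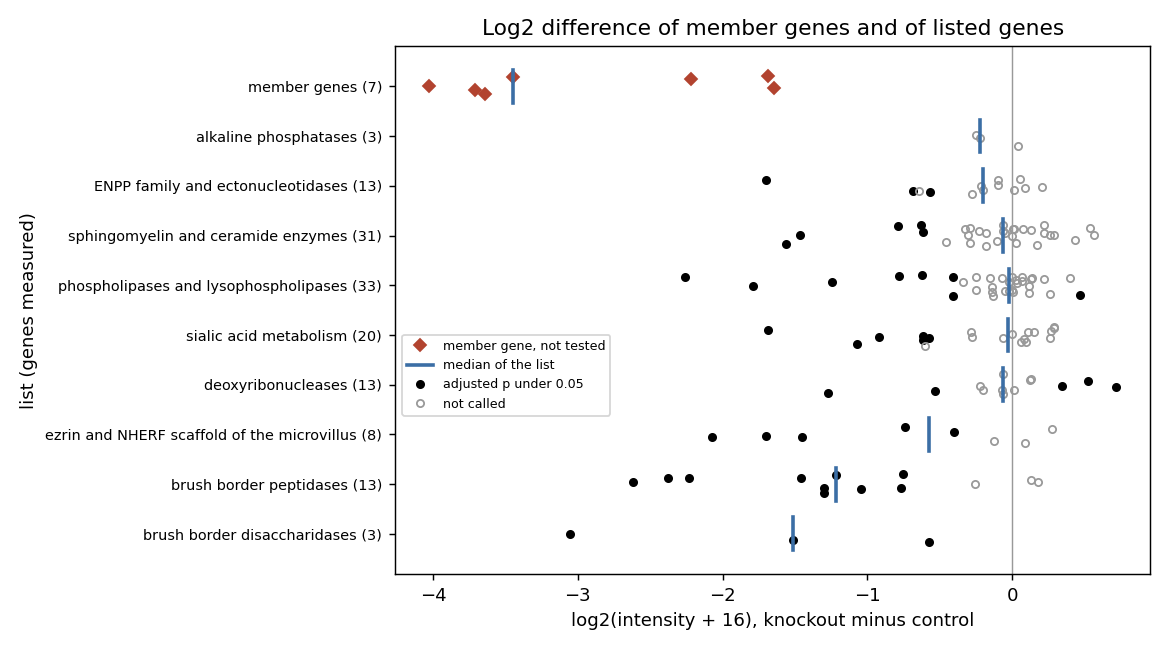
Log2 difference, knockout minus control, of the 7 genes (red diamonds, not tested) and of every measured gene of the 7 related lists and the 2 lists of brush border peptidases and disaccharidases, in black where the adjusted p was under 0.05 and open where not. Blue bars are list medians, at -3.45 for the 7 genes, -1.51 and -1.21 for disaccharidases and peptidases, and between -0.57 and -0.02 for the related lists.

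Over the 7 related lists together, 28 of 121 measured genes fell and 4 rose, beside 11.0% of all genes called lower and 13.4% called higher, with a median of -0.07 beside 0.01 over all genes. Of the 32 calls, 16 were kept whichever array was left out. The number of genes that fell was 20 without knockout replicate 1 and 33 without knockout replicate 2, and 18 without either of the control arrays in turn.

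The genes whose values over the 4 arrays lay closest to the mean profile of the 7 genes, by Euclidean distance between mean-centred log2(intensity + 16) values, were Adh6a, Mb21d2, Vwa1, Ces2a and Cyp2c55, at distances from 0.16 to 0.30. The 7 genes themselves lay at distances from 0.65 for Dnase1 to 1.31 for Enpp3 from their own mean profile. Adh6a, an alcohol dehydrogenase, read 355 and 654 in the knockout arrays, against 3842 and 3518 in the control arrays. Ces2a, a carboxylesterase that cleaves esters, read 387 and 788 in the knockout arrays, against 4372 and 3682 in the control arrays. With Cyp2c55, a cytochrome P450, the values were 90.6 and 139 in the knockout arrays, against 1138 and 1115 in the control arrays. Vwa1, a matrix protein, read 60.6 and 103 in the knockout arrays, against 787 and 666 in the control arrays, and Mb21d2 read 49.3 and 83.8 in the knockout arrays, against 657 and 640.1 in the control arrays. With 4 arrays this likeness mainly reflects the difference between the groups and is given as a description.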

How the data were processed

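Total RNA of jejunal crypt epithelium was biotin-labelled and hybridised to Affymetrix arrays, per the labels' protocols, with 2 arrays each for knockout and control. The authors deposited linear intensity values with 1 value for each probe set on each array. The background correction, summary method and scaling are not given in the sources used here. Array medians were between 139 and 143, so no scaling was added. The number of arrays limits the precision.

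Probe sets were named through the platform annotation, with symbols updated by Entrez ID from a RefSeq table of GRCm38.p6. Of 45101 probe sets 64 were controls, 34945 had 1 gene, 932 several and 9160 none listed. Where a gene had several probe sets, that of the highest mean log2(intensity + 16) stood for it. Differences were fitted in R 4.3.3 with limma 3.58.1 (lmFit, eBayes), knockout against control without a block, with Benjamini-Hochberg adjustment over 18193 genes and a call at an adjusted p under 0.05, with no filter on low values. The standard errors of probe sets come from the same fit over all probe sets other than controls. The fit was tested on simulated data. Genes named from a related or comparison list were the called genes, up to 4 in each direction with the smallest unadjusted p, or all where 5 or fewer were called, and others are said to be chosen after their values were seen. Alpl and Alppl2 are named to complete their list. The markers Lgr5, Olfm4 and Lyz2 are named outside this rule. Alternatives changed the pseudocount, scaling, prior, low-value filter, probe set choice, replicate block and arrays used.

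The 8 genes and all lists were chosen with earlier results of these data known. Of 241 listed genes 224 were measured. P-values set each difference against the spread between these samples, which limma moderates with a prior drawn from all genes.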

Additional observations from a re-analysis of the deposited data

How the results depend on the processing

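With 2 arrays per group the counts of calls depend on single arrays. Leaving out each array in turn moved the number of all genes called higher between 1157 and 2307 and lower between 1040 and 2059, that of related genes called higher between 1 and 7 and lower between 18 and 33, the median of the 7 genes between -3.64 and -3.25 and the median over the 16 probe sets between -2.47 and -1.54. Where an array was left out, the remaining array of its group was assumed to vary like the other group. The low intensities of Plb1, Npl and Tmigd1 in the knockout arrays limit how exactly their differences are known.

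The median of the 7 genes was -3.11 with a pseudocount of 64, -2.35 where the dimmest probe set stood for a gene and -2.62 with the mean over the probe sets of a gene. With a pseudocount of 1, 2 related genes were called higher. Under that choice of the dimmest probe set the differences of Nt5e (0.034), Siae (0.0070), Tatdn1 (-0.0021) and Mb21d2 (0.082) changed sign, and the cause was not tested. Scaling to equal medians, quantile normalization, the trended and robust prior and the filter at a mean intensity of 64 left the counts of calls over all genes and over the related genes within 1.5 times and both medians within the spread of the knockout arrays. Differences of the 16 single probe sets of the 7 genes stayed within their SE 131 times and moved further 44 times, and none of them changed sign. Same-numbered arrays deviated from their group means with a correlation of 0.0969 over genes, and the labels do not pair the animals. With a replicate block 2662 genes were called higher and 2219 lower, and 5 and 32 of the related genes.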
